A study of Mus musculus with 13 samples.

Results

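Hair bulge and intestinal stem cells that both transcribe Lgr5 were compared on expression arrays. The groups were 3 hair bulge samples, from cells of the hair follicle with dim GFP, and 4 GFP_High samples, from cells of the small intestine (SI) with bright GFP. These 7 samples belong to a series of 13 that also holds 3 GFP_Low samples, the dim cells of the crypt, and 3 Villus samples, the differentiated SI epithelium. All groups came from C57BL/6 mice that carry Lgr5-EGFP-ires-CreERT2, a knock-in that places green fluorescent protein and an inducible recombinase under the Lgr5 promoter, and the labels give 3 mice per sample, no age and no treatment. GFP therefore reports transcription from the Lgr5 locus, and a gate on it holds any cell type in which that promoter was active. Samples were assigned by title and source, and the methods likewise name the hair bulge gate as low. A separate field of the labels gives the opposite level for 3 of 3 hair bulge samples and for GFP_High sample 2. The gates were thus not matched, and every difference below is one between tissue, gate and dissociation together, which cannot be told apart. Sex-linked transcripts also differed between hair bulge and all GFP_High samples but sample 1, as given below, so that sex in part followed the groups.

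Lgr5 encodes a receptor for R-spondins, secreted proteins that keep Wnt receptors at the cell surface. In the SI it marks the columnar cells at the crypt base, which divide continuously and renew a single-layered absorptive epithelium. In the skin it marks cells of the lower bulge and hair germ, which are mostly at rest between hair cycles and renew a follicle within a stratified epithelium. The comparison sets these stem cell systems side by side and asks what an Lgr5-positive cell of the follicle shared with one of the crypt and where the tissues differed.

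The values are intensities on a linear scale. Values of single samples are given in the order of samples 1 to 3 for hair bulge and samples 1 to 4 for GFP_High. A difference is the mean log2 intensity of hair bulge minus that of GFP_High, with its standard error (SE), from limma fitted to all 13 arrays, and a gene was called at an adjusted p under 0.05 over 17097 genes. Because the files hold no detection call, the receptor level was used in its place. It is an intensity of 7.551, the 95th percentile of 86 probe sets for receptors of odours, pheromones and bitter taste. A gene at or below it in every sample of a group has only a bound there, given as "at least" so many fold. A lower intensity in a bulk sample can come from fewer cells of a type or from less RNA per cell, and these cannot be told apart.

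Arrays of 1 group resembled each other. Across genes, which are not independent replicates, log2 values correlated at 0.978 to 0.989 within hair bulge and at 0.987 to 0.994 within GFP_High, against 0.774 to 0.824 between the groups. Median intensity was 8.4 to 8.7 in hair bulge and 7.9 to 8.2 in GFP_High, and 61.6% to 62.3% and 59.9% to 60.8% of genes lay above the receptor level. Some arrays stood apart from their group. Hair bulge sample 2 exceeded the mean of the other hair bulge samples by a log2 of more than 2 for 100 genes, among them Mki67, Ube2c and Ccna2, while hair bulge samples 1 and 3 did so for 1 and 3 genes. Hair bulge sample 3 lay below the other hair bulge samples by that margin for 45 genes, Mki67, Ube2c and Ccna2 again among them, against 5 and 2 for samples 1 and 2. GFP_High sample 3 lay below the others of its group by that margin for 29 genes and above them for 20, against at most 11 in either direction for any other GFP_High sample. The titles hold a number whose meaning the labels do not give, called the title code here, and the only code that the groups share is that of hair bulge sample 2 and GFP_High sample 3. For some genes that these arrays affect, such as Mki67 and Cd74, differences are given with and without the array concerned.

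The markers matched the labels. Krt14 and Krt5, the keratin pair of basal keratinocytes, and Col17a1, a collagen that anchors these cells to the basement membrane, were intense in every hair bulge sample. Krt14 measured 5549, 3947 and 7179 in hair bulge, against 5.3, 4.5, 4.4 and 5.1 in GFP_High, at least 715-fold higher (adjusted p = 7.6e-15). Krt5 measured 4961, 5335 and 4418 in hair bulge and 7.3, 7.4, 8 and 8.5 in GFP_High (9.29 ± 0.17, adjusted p = 2.1e-14). Col17a1 measured 5946, 4911 and 6464 in hair bulge and 3.9, 4.3, 4.5 and 4.4 in GFP_High (at least 759.7-fold higher, adjusted p = 5.8e-15). All 3 genes lay near or below the receptor level in GFP_High cells, and the groups did not overlap. Over all genes, 20% lay higher in every hair bulge sample than in any GFP_High sample and 31.1% lay lower in every one, so that a lack of overlap is common here.

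The intestinal markers were the reverse. Olfm4, a secreted glycoprotein of crypt base stem cells, measured 4.2, 5.7 and 5 in hair bulge and 6924, 5887, 5183 and 6902 in GFP_High, at least 818-fold lower in hair bulge (adjusted p = 8.2e-12). Hnf4a, a nuclear receptor that maintains intestinal epithelial gene expression, measured 7.3, 7.1 and 10 in hair bulge and 2475, 2660.1, 2374 and 2263 in GFP_High (-8.25 ± 0.13, adjusted p = 6.2e-15). Olfm4 was below the receptor level in all hair bulge samples and Hnf4a within a few units of it.

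Of 17097 genes, 8301 were called (48.6%), with 3321 higher in hair bulge (19.4% of all genes) and 4980 lower (29.1%). By a log2 of at least 2, 1094 genes were higher (6.40%) and 1180 lower (6.90%), and by at least 5, 206 were higher and 138 lower. Among the 1094, 383 were not above the receptor level in any GFP_High sample, and among the 1180, 224 were not above it in any hair bulge sample. A further 3244 called genes, 39.1% of the calls, differed by less than a log2 of 1. The median difference over all genes was -0.06. The call rate is therefore high, and counts of calls within a gene list are to be read against these shares.

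**Figure D1:**
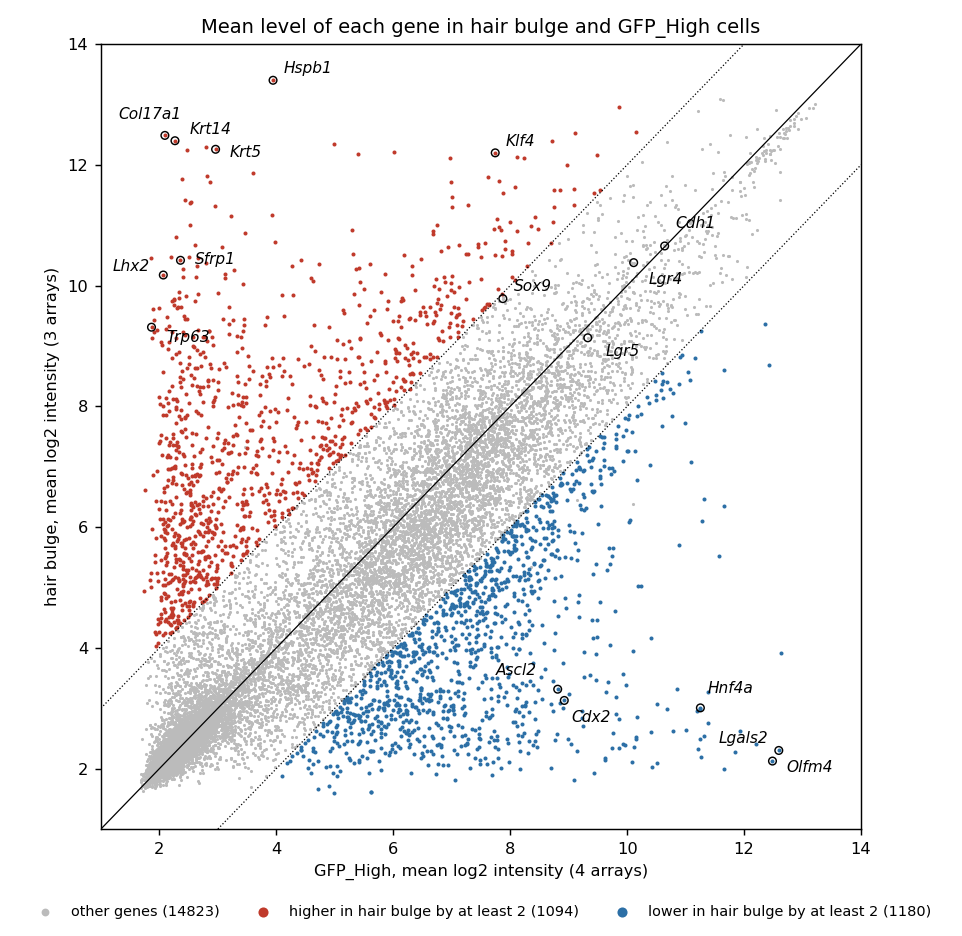
Mean log2 intensity of each of 17097 genes in GFP_High (x axis, 4 arrays) and hair bulge (y axis, 3 arrays), with genes called and different by a log2 of at least 2 in red (1094 higher in hair bulge) and blue (1180 lower), and dotted lines at a log2 of 2 from the diagonal. Col17a1, Krt14, Krt5 and Hspb1 lie at the upper left and Olfm4, Lgals2 and Hnf4a at the lower right, while Lgr5, Lgr4 and Cdh1 lie near the diagonal.

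Some of these genes have promoters rich in CpG dinucleotides, the sites at which mammalian DNA is methylated, and others have few. RefSeq promoter windows (GRCm38.p6, 250 bases before to 50 after the annotated start) were available for 13514 genes. The 4 windows below are shown because they cover both kinds among genes whose values stand in this report. Krt5 and Olfm4 are markers with opposite differences, Cdx2 is an intestinal transcription factor, and Lgr4 is a receptor with like levels in both groups. Each is printed 5′ to 3′ along the strand of its gene, with CpG dinucleotides in capitals.
Krt5, chr15:101712856-101713155, minus strand: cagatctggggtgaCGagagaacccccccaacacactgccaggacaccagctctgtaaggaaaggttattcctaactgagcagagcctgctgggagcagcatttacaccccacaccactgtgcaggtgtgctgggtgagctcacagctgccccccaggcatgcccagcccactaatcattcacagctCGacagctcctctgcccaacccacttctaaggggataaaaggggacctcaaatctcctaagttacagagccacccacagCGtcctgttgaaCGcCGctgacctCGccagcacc
Olfm4, chr14:80000052-80000351, plus strand: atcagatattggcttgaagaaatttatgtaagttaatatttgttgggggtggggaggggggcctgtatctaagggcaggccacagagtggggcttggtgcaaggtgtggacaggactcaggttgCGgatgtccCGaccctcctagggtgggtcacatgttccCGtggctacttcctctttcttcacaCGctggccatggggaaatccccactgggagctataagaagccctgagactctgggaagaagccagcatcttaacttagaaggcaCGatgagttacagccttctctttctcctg
Cdx2, chr5:147307200-147307499, minus strand: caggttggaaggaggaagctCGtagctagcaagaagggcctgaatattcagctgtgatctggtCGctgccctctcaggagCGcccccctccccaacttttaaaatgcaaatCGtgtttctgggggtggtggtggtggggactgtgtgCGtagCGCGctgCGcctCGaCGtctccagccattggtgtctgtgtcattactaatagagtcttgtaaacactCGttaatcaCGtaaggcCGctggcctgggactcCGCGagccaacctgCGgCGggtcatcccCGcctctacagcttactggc
Lgr4, chr2:109917397-109917696, plus strand: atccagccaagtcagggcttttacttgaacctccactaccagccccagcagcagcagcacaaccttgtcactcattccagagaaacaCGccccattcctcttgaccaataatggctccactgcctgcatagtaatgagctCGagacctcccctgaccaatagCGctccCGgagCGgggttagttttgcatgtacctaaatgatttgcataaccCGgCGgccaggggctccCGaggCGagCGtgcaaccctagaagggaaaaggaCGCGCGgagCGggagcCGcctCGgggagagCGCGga

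The windows of Krt5 and Olfm4 hold 6 and 5 CpG dinucleotides, with a ratio of observed to expected CpG of 0.251 and 0.25, whereas those of Cdx2 and Lgr4 hold 18 each, with ratios of 0.731 and 0.711. GC content varied little among the 4 windows, between 52.3% and 58.3%. Over all 27025 windows of the table, those of genes not measured here included, the median ratio was 0.389 with quartiles of 0.174 and 0.754, so that Krt5 and Olfm4 lay between the lower quartile and the median and Cdx2 and Lgr4 between the median and the upper quartile. The median was 0.795 over the 3169 windows of 3884 genes alike in both groups, as defined below, and 0.665 over the 951 windows of 1180 genes lower in hair bulge by a log2 of at least 2. Medians over the genes higher by that margin and over all measured genes are not given, because 76.3% and 79.0% of them had a window and a check on fewer than 80% of a set is void. The medians of 0.795 and 0.665 cover measured genes only and are not to be read against the 0.389 of all windows. These ratios are descriptions without a test.

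Lgr5 itself was not called. It measured 479, 539.7 and 687 in hair bulge and 793, 533, 576 and 697 in GFP_High, and the samples overlapped, with a difference of -0.19 ± 0.43 (adjusted p = 0.77, 95% interval -1.12 to 0.74). The interval is wide because the 13-array fit takes in the spread of the other groups, in which Lgr5 was low (GFP_Low 30.9 ± 30.5, SD, n = 3). A second probe set of Lgr5, close to the receptor level, measured 6.1, 6.2 and 7.7 in hair bulge and 10.9, 10.3, 7.3 and 10.1 in GFP_High and was called lower by limma over all probe sets (-0.53 ± 0.17, adjusted p = 0.024). Fitted to the 7 arrays alone, the brighter probe set had an SE of 0.18 and an adjusted p of 0.44. Lgr4, the broadly expressed relative of Lgr5, measured 1334, 1247 and 1421 in hair bulge and 1174, 1061, 1052 and 1143 in GFP_High, and its interval of -0.08 to 0.62 lay within a log2 of 1. Its hair bulge samples nevertheless all exceeded the GFP_High samples, and for Lgr5 a difference of up to a log2 of 1 in the direction of lower hair bulge values was not excluded by the interval.

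Other genes of the R-spondin axis differed. Lgr6, the third receptor of the family and a marker of cells above the bulge, measured 54, 76.7 and 23.2 in hair bulge and 8.7, 10.3, 9.7 and 9.7 in GFP_High (2.26 ± 0.28, adjusted p = 1.1e-05), with hair bulge sample 3 the lowest of its group. Rnf43 and Znrf3, ubiquitin ligases that remove Frizzled receptors and are themselves Wnt targets, were lower in hair bulge. Rnf43 measured 18, 20.8 and 16.1 in hair bulge and 240.4, 161, 214 and 203 in GFP_High (-3.48 ± 0.25). Znrf3 measured 75.8, 72.4 and 49.7 in hair bulge and 148, 124, 132 and 131 in GFP_High (-1.04 ± 0.20). For these 3 genes the groups did not overlap.

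Of 27 measured genes in a list of crypt base stem cell genes, 17 were lower in hair bulge and 5 higher (median difference -1.61). Ascl2, a transcription factor that specifies crypt stem cells, measured 9.8, 7.8 and 12.9 in hair bulge and 471, 525, 374 and 442 in GFP_High (-5.50 ± 0.25, adjusted p = 2.3e-10). Prom1, a membrane glycoprotein of crypt cells, was below the receptor level in all hair bulge samples and at 2775, 2390.4, 2149 and 2448 in GFP_High, at least 322-fold lower in hair bulge. Aqp4, a water channel of the crypt base, was likewise below that level in hair bulge and at 601, 599, 452 and 532 in GFP_High. Axin2 and Smoc2 remained measurable in both groups. Axin2, a feedback inhibitor of Wnt signalling, measured 70.3, 74 and 95 in hair bulge and 628, 526, 605 and 605 in GFP_High (-2.90 ± 0.19). Smoc2, a matricellular protein, measured 151, 148 and 162 in hair bulge and 1109, 900.3, 1030.1 and 1107 in GFP_High (-2.75 ± 0.18).

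A smaller set of the list went the other way. Sox9, a transcription factor needed both in the bulge and at the crypt base, measured 922, 640.3 and 1159 in hair bulge and 211, 199.7, 241 and 298 in GFP_High (1.91 ± 0.19, adjusted p = 1.3e-06). Phlda1 measured 2216, 2498 and 3123 in hair bulge and 621, 304, 642 and 741 in GFP_High (2.24 ± 0.33). Cd44, a hyaluronan receptor, measured 1704, 1842 and 1709 in hair bulge and 656, 535, 329 and 568 in GFP_High (1.79 ± 0.22). In each case the lowest hair bulge sample exceeded the highest GFP_High sample. Lrig1, an inhibitor of EGF receptor signalling that marks stem cells in both tissues, was called lower in hair bulge by a smaller margin, with 377, 319 and 366 in hair bulge and 790.4, 613, 545 and 699 in GFP_High (-0.89 ± 0.19, adjusted p = 0.0014). Hopx and Cd24a were alike by the probe sets used, with intervals of -0.63 to 0.01 and -0.14 to 0.37. A second probe set was called lower for Hopx (-0.43 ± 0.12, adjusted p = 0.0096) and higher for Cd24a (0.62 ± 0.14, adjusted p = 0.0029).

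**Figure D2:**
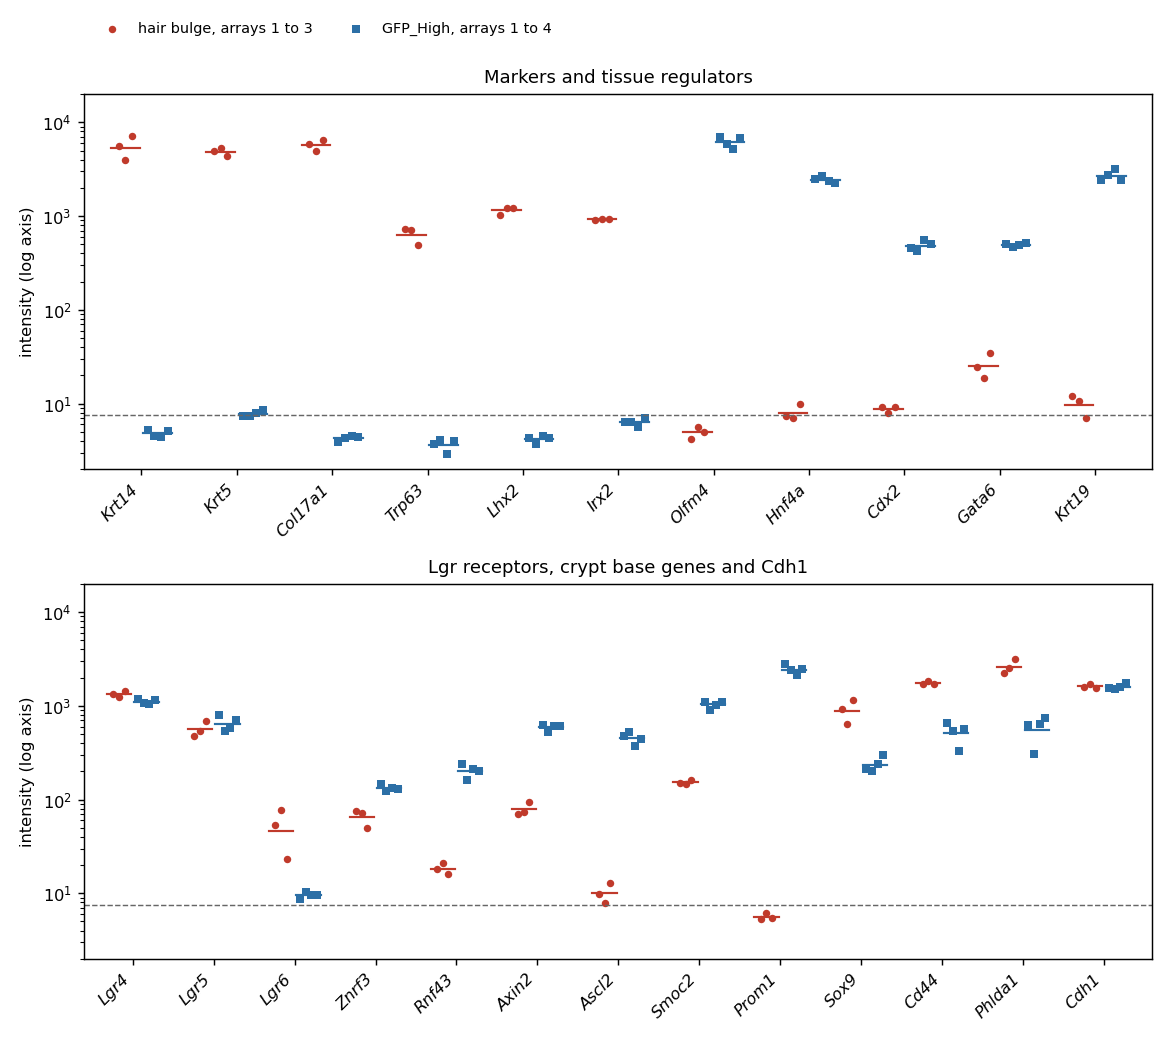
Intensity per array on a log axis for markers and tissue regulators (top) and for Lgr receptors, crypt base genes and Cdh1 (bottom), with hair bulge arrays 1 to 3 as red circles left of GFP_High arrays 1 to 4 as blue squares, bars at the geometric mean and the receptor level as a dashed line. The groups overlap for Lgr5 and Cdh1, Sox9, Cd44 and Phlda1 are higher in hair bulge, and Ascl2 and Prom1 are near or below the dashed line there.

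Genes of the bulge and hair germ were higher in hair bulge for 26 of 28 measured members (median difference 5.28). Postn, an extracellular matrix protein, measured 3414, 2897 and 4265 in hair bulge and 4.6, 4.8, 6.9 and 5 in GFP_High (at least 461-fold higher). S100a6, a calcium-binding protein, measured 3928, 3753 and 3174 in hair bulge and 5.7, 5.2, 14.3 and 5.9 in GFP_High (8.99 ± 0.47). Cd34, a surface marker of bulge stem cells in the mouse, measured 756, 585 and 1113 in hair bulge, at least 105-fold above GFP_High, where it was 4.2, 3.8, 3.3 and 4.8. Krt15, a keratin of the bulge, measured 5824, 4542 and 5317 in hair bulge and 25.1, 28.6, 35.2 and 39 in GFP_High (7.37 ± 0.32). Lrig1 was the single member called lower.

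Beside stem cell genes, the hair bulge samples held transcripts of differentiated epidermis. Of 24 measured suprabasal genes 22 were higher (median 4.66) and none lower. Dmkn, a secreted protein of the upper epidermis, measured 4830.0, 4736 and 5039 in hair bulge and 5.1, 5.8, 5.3 and 6 in GFP_High (at least 644-fold higher). Krt10, a keratin of spinous cells, measured 1409, 2841 and 1830.0 in hair bulge and 34.7, 37.5, 42.5 and 43.5 in GFP_High. Its partner Krt1 measured 115, 389 and 184 in hair bulge and 6.8, 6.9, 7.4 and 7.5 in GFP_High. Lor, a protein of the cornified envelope, measured 491, 988 and 1053 in hair bulge and 4.6, 4.5, 6.5 and 4.7 in GFP_High. Krt10, Krt1 and Lor were all lowest in hair bulge sample 1. The summed intensity of the list was 14504 to 20392 in hair bulge and 215.5 to 257.7 in GFP_High, and the part of such cells in the hair bulge differences was not tested. Genes of the hair shaft and inner root sheath, by contrast, were near the receptor level, and 5 of 16 measured members were called higher and 2 lower, and none by a log2 of 2.

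Transcription factors of the follicle were higher in hair bulge for 25 of 26 measured members (median 3.67), with none lower. Lhx2, a LIM homeodomain factor that maintains bulge stem cells, measured 1028, 1212 and 1237 in hair bulge and 4.3, 3.7, 4.5 and 4.3 in GFP_High, at least 153-fold higher (adjusted p = 4.3e-15). Trp63, the p53 relative required for stratified epithelia, measured 732, 717 and 488 in hair bulge and 3.7, 4.1, 2.9 and 4 in GFP_High (at least 84.1-fold higher). Foxc1, which holds bulge cells at rest, and Tbx1, a T-box factor of these cells, were at least 81.4-fold higher and at least 74.2-fold higher. Nfatc1, another factor of stem cell rest in the follicle, measured 462, 220.0 and 352 in hair bulge and 13.4, 17.3, 10.5 and 12.4 in GFP_High (4.64 ± 0.25). Hair bulge samples exceeded GFP_High samples without overlap for all 5 factors.

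Some follicle factors were also transcribed in GFP_High cells. Nfib, a nuclear factor I protein that controls the behaviour of bulge stem cells, measured 1461, 2147 and 2435 in hair bulge and 382, 346, 368 and 333 in GFP_High (2.46 ± 0.16). Nfix, its relative, measured 1975, 2634 and 2196 in hair bulge and 472, 496, 119 and 494 in GFP_High, where sample 3 was well below the others (2.72 ± 0.48, and 2.21 without GFP_High sample 3). Runx1 measured 141, 96.1 and 163 in hair bulge and 16.1, 11.1, 8.4 and 16.3 in GFP_High (3.38 ± 0.24).

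Of 28 measured intestinal transcription factors 21 were lower in hair bulge and 4 higher (median -3.10). Cdx2, the homeobox factor that specifies intestine, measured 9.2, 8 and 9.1 in hair bulge and 458, 430.1, 555 and 509.6 in GFP_High (-5.79 ± 0.20, adjusted p = 9.3e-12). Cdx1 measured 4.5, 6.6 and 5.8 in hair bulge and 192, 245, 216 and 195 in GFP_High. Elf3, an epithelial ETS factor, measured 13.7, 14.5 and 17.8 in hair bulge and 534, 572, 840.5 and 553 in GFP_High (-5.33 ± 0.19). Onecut2, Foxa1, Foxa3 and Ehf had fitted differences of -5.24 to -4.64. None of these 7 genes exceeded 26.3 in any hair bulge sample.

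The 4 factors of that list called higher were Klf4, Rxra, Tcf7l2 and Grhl2. Klf4, a zinc finger factor of differentiating cells in skin and gut, measured 4972, 3768 and 5531 in hair bulge and 213, 102, 315 and 309 in GFP_High (4.45 ± 0.32, adjusted p = 3.4e-08). In Villus it measured 1862 ± 411 (SD, n = 3). Rxra, the partner of many nuclear receptors, measured 180.1, 161 and 135 in hair bulge and 46.4, 57.6, 58.5 and 43.4 in GFP_High (1.63 ± 0.14). Klf5 and Vdr were alike by the probe sets used, with intervals of -0.58 to 0.35 and -0.50 to 0.14, and a second probe set of Vdr was called lower (-0.56 ± 0.14, adjusted p = 0.0054).

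A homeobox family outside those lists stood out among the neighbouring genes described further below, and its members were chosen after their values had been seen. Iroquois genes encode homeodomain proteins that pattern tissues and lie in a cluster on each of chromosomes 13 and 8. On chromosome 13, Irx2 measured 911, 942 and 941 in hair bulge and 6.3, 6.4, 5.6 and 7 in GFP_High (at least 123-fold higher), and its neighbours Irx1 and Irx4 were at least 24.6-fold higher and at least 11.2-fold higher. On chromosome 8, Irx3 measured 1243, 874 and 1452 in hair bulge and 7.2, 9, 7.6 and 11.7 in GFP_High (7.06 ± 0.26). Irx5 measured 874, 782 and 962 in hair bulge and 4.9, 4.4, 4.3 and 5.5 in GFP_High (at least 115-fold higher). For these 5 genes the groups did not overlap, whereas Irx6 was below the receptor level in all 7 samples.

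Of 39 measured keratin genes, 17 were higher in hair bulge (6 of 20 type I and 11 of 19 type II) and 6 lower. Krt16, a type I keratin of the outer root sheath, measured 913, 796 and 1172 in hair bulge and 4.3, 5.3, 6 and 4.7 in GFP_High (at least 126-fold higher). Krt77 measured 1068, 2339 and 1742 in hair bulge and 5.3, 6.7, 6.2 and 6.2 in GFP_High (at least 216-fold higher). Krt6a, of the companion layer, measured 1214, 399 and 1696 in hair bulge and 7.9, 8.8, 9.1 and 6.4 in GFP_High (6.88 ± 0.37). Krt77 was highest and Krt6a lowest in hair bulge sample 2.

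Keratins of simple epithelia were the main lower members. Krt8 measured 70.7, 68.5 and 112 in hair bulge and 2994, 3191, 3911 and 2860.2 in GFP_High (-5.30 ± 0.17). Krt18 measured 37.9, 62.1 and 59.8 in hair bulge and 1982, 1675, 2059.8 and 1915 in GFP_High (-5.19 ± 0.17). Krt19 measured 12.1, 10.6 and 7.1 in hair bulge and 2459.5, 2715, 3217 and 2413 in GFP_High (-8.11 ± 0.17, adjusted p = 8e-14). In hair bulge Krt8 and Krt18 stayed above the receptor level, and Krt19 was close to that level. Over the cytoskeleton and brush border list of simple epithelium, 17 of 19 measured genes were lower (median -5.30). Vil1, the actin bundler of microvilli, measured 7.7, 9.3 and 5.8 in hair bulge and 888, 857, 1016 and 839 in GFP_High, and Muc13, a membrane mucin, 7.6, 7.5 and 8.8 in hair bulge and 1897, 1676, 1600.5 and 1441 in GFP_High. Ezr, which links membrane to actin, was the single member higher in hair bulge, with 1610.1, 1045 and 1532 in hair bulge and 401, 455, 504 and 493 in GFP_High (1.57 ± 0.20).

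Genes that anchor basal cells to matrix were higher in hair bulge for 15 of 16 measured members (median 4.51). Lama3, a chain of the laminin under the epidermis, measured 668, 521 and 934 in hair bulge and 4.1, 3.1, 3.5 and 4.4 in GFP_High. In Villus its mean was 284. Lamb3, another chain, measured 1118, 1038 and 1389 in hair bulge and 75, 58.8, 61.9 and 41.9 in GFP_High. Itgb4, the integrin chain of hemidesmosomes, measured 609.8, 675 and 817 in hair bulge and 78.9, 89.1, 66.7 and 77.1 in GFP_High (3.16 ± 0.15). Its partner Itga6 was alike by the probe set used, with 915, 666 and 867 in hair bulge and 1029.9, 919, 1022 and 998 in GFP_High (-0.29 ± 0.14, adjusted p = 0.12), but another probe set of Itga6 was called higher in hair bulge (0.59 ± 0.22, adjusted p = 0.046).

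Cell adhesion genes had members on both sides. Cdh1, E-cadherin, was alike, with 1579, 1727 and 1536 in hair bulge and 1553, 1491, 1601 and 1752 in GFP_High (95% interval -0.21 to 0.24), and the sign of its small difference varied with the scaling. Cdh17, the intestinal cadherin, measured 6.5, 4.7 and 7.4 in hair bulge and 1330.0, 1207, 1529 and 1383 in GFP_High (at least 179.8-fold lower). Cdh3, P-cadherin, measured 151, 91.3 and 123 in hair bulge and 10.5, 12.2, 8.5 and 9.1 in GFP_High (3.58 ± 0.17). Both differences were far larger than that of Cdh1. Among desmosomal cadherins, Dsc3 and Dsg1a were higher in hair bulge (at least 272-fold higher and at least 22.8-fold higher) and Dsc2 and Dsg2 lower (-3.66 ± 0.22 and -2.15 ± 0.12). Dsc3 measured 2138, 1840.5 and 2210.2 in hair bulge and 5.8, 5.8, 5.1 and 6.5 in GFP_High, and Dsc2 measured 36.7, 18.2 and 34.1 in hair bulge and 341, 290.2, 391 and 423 in GFP_High. Of the plaque proteins, Perp, Pkp1 and Dsp were higher (4.17 ± 0.15, 2.53 ± 0.11 and 1.69 ± 0.13) and Pkp2 lower (-3.75 ± 0.20).

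Claudins, which seal tight junctions, were called higher for 4 and lower for 6 of 19 measured genes. These counts are near the shares over all genes, 19.4% higher and 29.1% lower. Cldn1, needed for the barrier of the epidermis, measured 409.9, 645 and 516 in hair bulge and 4.2, 4.3, 4.1 and 3.9 in GFP_High (at least 68.2-fold higher). Cldn4 measured 603, 823 and 757 in hair bulge and 51.8, 19.1, 120.2 and 47.6 in GFP_High (3.89 ± 0.41). Cldn7 measured 9.5, 8.6 and 6.2 in hair bulge and 2629, 2451, 2309.6 and 2285 in GFP_High (-8.24 ± 0.15). Cldn2, a pore-forming claudin of crypts, measured 5.5, 5.2 and 4.6 in hair bulge and 855, 883, 1342 and 726 in GFP_High (at least 123-fold lower). Of the gap junction proteins, Gja1 measured 2528, 2741 and 2944 in hair bulge and 5.4, 5.7, 5.2 and 5.3 in GFP_High, at least 362-fold higher, whereas Gjb1, the connexin of liver and gut, was lower, with 6.1, 5 and 7.3 in hair bulge and 26.9, 35, 33.6 and 28.5 in GFP_High (at least 4.08-fold lower).

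Some other families also had members that differed in opposite directions, where 19.4% of all genes were called higher and 29.1% lower. Other family lists lay mainly on 1 side. KLF factors were higher for 9 and lower for 0 of 14 measured genes, and integrins for 9 and 1 of 16. The galectins, lectins that bind galactosides, had members with large differences in both directions. Lgals2 measured 4.1, 4.5 and 4.5 in hair bulge and 5269, 6551, 5497 and 5694 in GFP_High, at least 759-fold lower in hair bulge (adjusted p = 8.3e-16). Lgals4 measured 51.8, 35.5 and 53.4 in hair bulge and 2963, 3168, 3068 and 2986 in GFP_High (-6.04 ± 0.14). Lgals7, a galectin of stratified epithelia, measured 5155, 5974 and 4052 in hair bulge and 6.9, 7.7, 6.3 and 7.1 in GFP_High (9.48 ± 0.15). These galectins did not overlap between the groups. Lgals3 was also higher in hair bulge than in GFP_High (6.77 ± 0.26), with 4654 ± 687 in hair bulge, 45 ± 18.9 in GFP_High and 4659 ± 1016 in Villus (SD, n = 3, 4 and 3). Against Villus, the hair bulge difference of Lgals3 was 0.01 (adjusted p = 0.97), a comparison that shares its hair bulge samples with that against GFP_High.

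Annexins, which bind membranes in the presence of calcium, were higher for 7 and lower for 3 of 11 measured genes. Anxa8 measured 3115, 2193 and 2730.5 in hair bulge and 5.6, 6, 6.8 and 4.7 in GFP_High (at least 351-fold higher). Anxa1 measured 2867, 2216 and 2634 in hair bulge and 5.6, 6.7, 11.7 and 8.1 in GFP_High (8.37 ± 0.22). Anxa13, the intestinal annexin, measured 6.8, 4.8 and 6.1 in hair bulge and 90.2, 170.3, 173 and 162 in GFP_High (at least 19.1-fold lower). Anxa4 measured 344, 344 and 351 in hair bulge and 2299, 2150.4, 2012 and 2199 in GFP_High (-2.64 ± 0.17). The groups did not overlap for these 4 genes.

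Smaller families had members on both sides as well. Called higher and lower were 3 and 3 of 10 aquaporins, and 2 and 1 of 7 transglutaminases. The counts were 1 and 2 of 5 GATA factors, and 3 and 4 of 12 fatty acid-binding proteins. With 19.4% of all genes higher and 29.1% lower, members on both sides are common here. Of the water channels, Aqp3, which also carries glycerol in skin, measured 807, 406 and 1048 in hair bulge and 6.9, 11.2, 8.8 and 7.7 in GFP_High (6.36 ± 0.32). Aqp1 measured 7, 7.7 and 7 in hair bulge and 1142, 1069.5, 1336 and 1080.1 in GFP_High (-7.32 ± 0.23). Of the protein-crosslinking transglutaminases, Tgm5 measured 1332, 1375 and 1259 in hair bulge and 8.1, 5.5, 7.8 and 6.8 in GFP_High (7.57 ± 0.14). Tgm2 measured 15.7, 11.7 and 13.2 in hair bulge and 527, 544, 511 and 359.8 in GFP_High (-5.16 ± 0.27). The GATA factors were split in the same manner. Gata3, needed for the inner root sheath, measured 169, 319.6 and 303 in hair bulge and 4.9, 5, 5.4 and 4.2 in GFP_High (at least 33.6-fold higher). Gata6, a factor of endoderm, measured 24.7, 19 and 34.9 in hair bulge and 508, 473, 495 and 516 in GFP_High (-4.29 ± 0.20). Fatty acid-binding proteins were split too, with Fabp5 higher (1.86 ± 0.39) and Fabp2 and Fabp1 lower (at least 194-fold lower and at least 27.5-fold lower). Fabp5 was highest in hair bulge sample 2 and Fabp1 lowest in GFP_High sample 1.

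**Figure D3:**
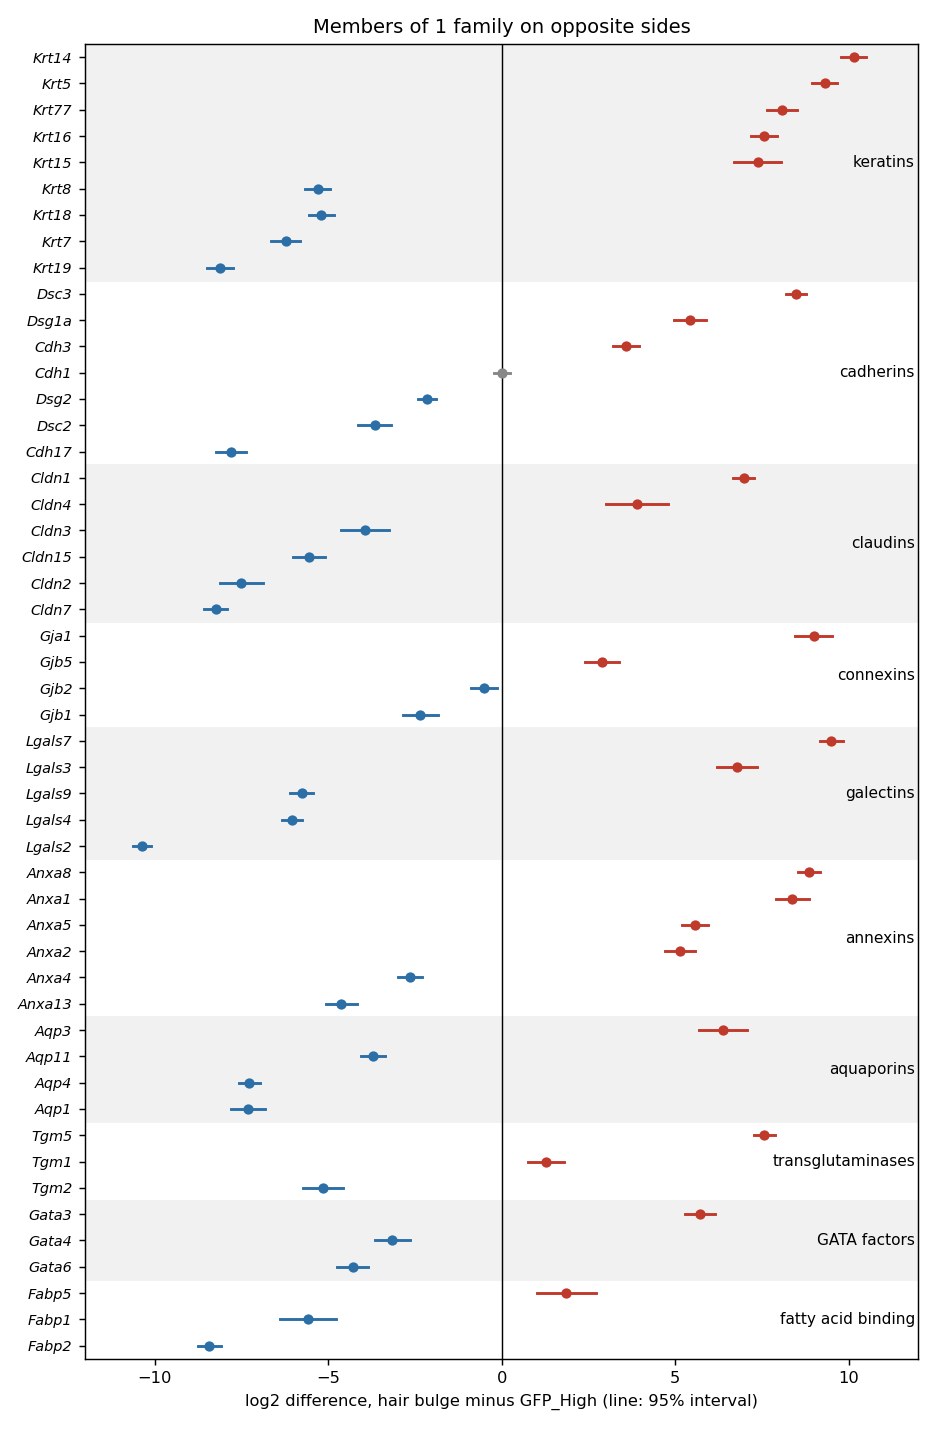
Log2 difference, hair bulge minus GFP_High, with its 95% interval (x axis), for named members of 10 gene families (rows, shaded in turn), red where called higher in hair bulge, blue where called lower and grey where not called. Only families with called members in both directions are shown. Lgals7 and Lgals2 among the galectins lie on opposite sides of 0, and Cdh1 lies at 0 between Dsc3 and Cdh17. For genes below the receptor level in 1 group, such as Lgals2 and Dsc3, the plotted value is the fitted difference and the fold is a bound.

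Wnt proteins bind Frizzled receptors and stabilise beta-catenin, which acts with TCF factors on target genes. Of 19 Wnt ligands 7 were higher in hair bulge and none lower, and 9 were above the receptor level in none of the 7 samples. Wnt4 measured 171, 158 and 143 in hair bulge and 5.6, 5.7, 7.1 and 8.4 in GFP_High (4.57 ± 0.15). Wnt7b measured 52.6, 67 and 46.1 in hair bulge and 10.8, 9.2, 13.7 and 11.2 in GFP_High (2.30 ± 0.19). Receptors were higher for 10 of 15 and lower for 1. Fzd3 measured 177, 171 and 216 in hair bulge and 5.7, 5.5, 7.8 and 6 in GFP_High (4.92 ± 0.16). Fzd2 measured 503, 363 and 463 in hair bulge and 38.8, 44.1, 17.3 and 39.6 in GFP_High (3.74 ± 0.29). Ror2 was the 1 receptor lower in hair bulge, with 17.1, 28.4 and 12.3 in hair bulge and 30.5, 30.2, 57.2 and 30 in GFP_High (-0.97 ± 0.32, adjusted p = 0.021). It was not called without hair bulge sample 1 or 3 or GFP_High sample 3 (adjusted p = 0.063, 0.12 and 0.062).

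Secreted inhibitors differed in both directions. Sfrp1, which binds Wnt proteins, measured 1219, 1633 and 1288 in hair bulge and 4.6, 5.7, 5.2 and 5.1 in GFP_High, at least 181-fold higher (adjusted p = 1.9e-14). Dkk3 and Wif1 were also higher in hair bulge (at least 53.9-fold higher and at least 8.78-fold higher). Sfrp5, a relative of Sfrp1, was lower, with 6.3, 6.8 and 9.8 in hair bulge and 112, 123, 169 and 126 in GFP_High (-4.13 ± 0.20). Ctnnb1, which encodes beta-catenin, was alike, with 3895, 3962 and 3524 in hair bulge and 3406, 3052, 3234 and 3262 in GFP_High, although its other probe sets were called higher (0.43 ± 0.16 and 1.16 ± 0.23), as was the mean of all its probe sets (0.61). Of TCF and Groucho genes 7 of 8 were higher, among them the corepressor Tle2 (at least 7.75-fold higher) and Tcf7l1, the TCF factor of bulge cells, with 88.7, 71.6 and 96.5 in hair bulge and 10.7, 10, 10.5 and 11.3 in GFP_High. Wnt target genes were evenly divided, with 8 higher and 8 lower of 19. The lower members were Ascl2, Cdx1, Sp5, Rnf43, Axin2, Tnfrsf19, Ccnd1 and Znrf3. The higher ones included Sox9 and Bambi. Bambi measured 234, 151 and 251 in hair bulge and 18.2, 18.5, 19.6 and 27 in GFP_High.

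In the BMP and TGF-beta pathway, 13 of 20 ligands and antagonists were higher in hair bulge and none lower. BMP signals hold bulge cells at rest, and antagonists release them. Bmp2 measured 1530.2, 839 and 1629 in hair bulge and 15.9, 21.7, 24.4 and 16.6 in GFP_High (6.05 ± 0.27, adjusted p = 1.8e-10). The antagonists were high in the same samples. Fst, which binds activin and BMPs, measured 1534, 787 and 1193 in hair bulge and 6, 4.9, 5.8 and 4.6 in GFP_High (at least 149.5-fold higher). Sostdc1 measured 948, 1789 and 440.2 in hair bulge and 6, 5.2, 6.3 and 4.5 in GFP_High (at least 120.2-fold higher). Grem1 measured 284, 321 and 271 in hair bulge and 10.2, 10.1, 9.8 and 10.5 in GFP_High (4.84 ± 0.19). Sostdc1 varied most among hair bulge samples and was highest in sample 2.

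Id genes, direct targets of BMP signals in many cells, were higher in hair bulge. Id4 measured 1355, 1033 and 1301 in hair bulge and 8.1, 6.5, 13.7 and 12.1 in GFP_High (6.98 ± 0.22). Id3 measured 2493, 1820.0 and 2367 in hair bulge and 169, 218, 222 and 282 in GFP_High (3.33 ± 0.17). Id1 measured 2368, 1537 and 2388 in hair bulge and 465, 557, 609 and 847 in GFP_High (1.77 ± 0.30). The groups did not overlap for these 3 genes. Over receptors and effectors, 15 of 22 were higher and 2 lower. Smad3, which carries TGF-beta and activin signals, was lower, with 69.5, 90 and 74.5 in hair bulge and 165, 176, 199.9 and 162 in GFP_High (-1.17 ± 0.17).

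Hedgehog genes were higher for 9 of 13 measured members and lower for 1. Gli factors transmit the signal to the nucleus. Gli2 measured 414, 360.2 and 276 in hair bulge and 7.7, 8.1, 7.2 and 7.1 in GFP_High (5.52 ± 0.15). Gli1, itself a target, measured 129.7, 265 and 86.5 in hair bulge and 5, 3.9, 4.8 and 3.9 in GFP_High (at least 19.1-fold higher). Boc, a coreceptor, differed by 4.18 ± 0.17. Ptch1, the receptor and another target, measured 362, 990.5 and 240.4 in hair bulge and 218, 182, 222 and 231 in GFP_High (1.06 ± 0.35, adjusted p = 0.021), and without hair bulge sample 2 it differed by 0.47 (adjusted p = 0.082). Without GFP_High sample 2 it also missed the threshold (adjusted p = 0.053). Gli1 and Ptch1 were thus both highest in hair bulge sample 2. Among ligands, Shh was below the receptor level in all 7 samples, and Ihh was lower in hair bulge (5.4, 4 and 4.9 in hair bulge and 8.2, 10.2, 14 and 11.1 in GFP_High, at least 1.41-fold lower), where it was below that level. With 16 added to each intensity before the log2, Ihh was not called (adjusted p = 0.083).

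Notch genes were higher for 7 and lower for 3 of 20, where 19.4% of all genes were higher and 29.1% lower. Jag1, a ligand, measured 282, 211 and 296 in hair bulge and 7.6, 7.6, 12 and 12.3 in GFP_High (4.76 ± 0.30, adjusted p = 7.6e-09). Hey1, a target, measured 69, 58.8 and 58.3 in hair bulge and 10, 10.1, 9 and 12.7 in GFP_High (2.58 ± 0.14). Hes6, an inhibitor of Hes1, was lower, with 45.4, 51.4 and 40.4 in hair bulge and 319, 361, 307 and 277 in GFP_High (-2.79 ± 0.12). Hes1, a Notch target in both tissues, was not called, with 446, 322 and 848 in hair bulge and 416, 220.2, 553 and 492 in GFP_High (95% interval -0.47 to 1.11), and its samples overlapped. Within the shared title code Hes1 differed by -0.78.

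Of the EGF family, 6 of 13 genes were higher and 4 lower. Epgn, a ligand of the receptor, measured 349, 399 and 1005 in hair bulge and 7.8, 8.3, 6.1 and 8.1 in GFP_High (6.11 ± 0.28). Hbegf, another ligand, measured 2861, 1786 and 3146 in hair bulge and 392, 242, 633 and 566 in GFP_High (2.56 ± 0.28). Egfr, the receptor, was higher in hair bulge (2.07 ± 0.20), and Erbb3, a relative that signals in pairs, was lower, with 400.1, 449 and 417 in hair bulge and 994, 703, 800.4 and 967 in GFP_High (-1.02 ± 0.17). Epgn was highest in hair bulge sample 3, and the groups did not overlap for any of these genes.

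FGF receptors differed in opposite directions. Fgfr1 measured 567, 553 and 727 in hair bulge and 6.7, 8.6, 7 and 6.8 in GFP_High (6.40 ± 0.13). Fgfr4 measured 5.3, 4.4 and 6.7 in hair bulge and 89.4, 62.1, 56.5 and 59.1 in GFP_High (at least 8.69-fold lower). Fgf18, a ligand that keeps follicles at rest in the mouse, measured 111, 61.4 and 67.3 in hair bulge and 6.8, 6.6, 11.2 and 6 in GFP_High (3.38 ± 0.30). Eph receptors and ephrins, which sort cells by contact, were higher for 9 of 17 and lower for 1. Efna5 measured 414, 381 and 464 in hair bulge and 6.8, 4.6, 6.8 and 4.9 in GFP_High (at least 55.4-fold higher). Efnb2 measured 1145, 948 and 1139.9 in hair bulge and 22.4, 17.8, 44.2 and 21.2 in GFP_High (5.44 ± 0.25). Efna4, the lower member, measured 49.1, 37.6 and 51.5 in hair bulge and 130.2, 143, 68.7 and 96.5 in GFP_High (-1.21 ± 0.28).

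**Figure D4:**
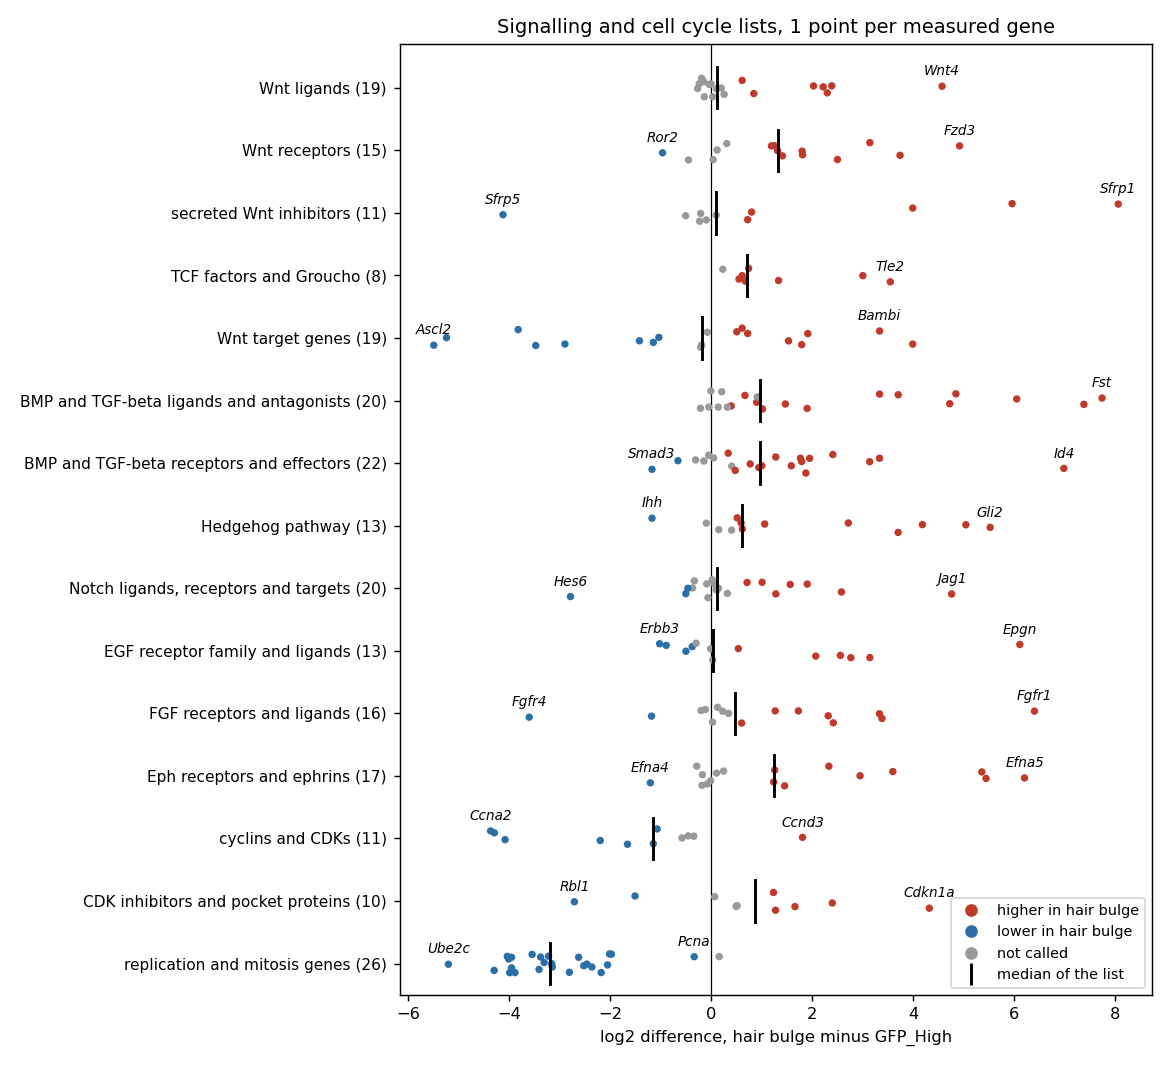
Log2 difference, hair bulge minus GFP_High (x axis), of each measured gene of 15 signalling and cell cycle lists (rows, number of genes in parentheses, points spread vertically for visibility), red where called higher in hair bulge, blue where called lower and grey where not called, with a black bar at the median. Receptor and ligand lists lie mostly at or right of 0, Wnt target genes on both sides with a median of -0.19, and replication and mitosis genes at a median of -3.19.

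Genes of DNA replication and mitosis were lower in hair bulge for 25 of 26 measured members (median -3.19), and none was higher. Mki67, a protein of dividing cells, measured 57.3, 344 and 15.7 in hair bulge and 1098, 1090.4, 1035 and 982 in GFP_High (-3.96 ± 0.70, adjusted p = 0.00024). Ube2c, which works in mitotic exit, measured 22.6, 156 and 9.8 in hair bulge and 1246, 1335, 1163 and 1079 in GFP_High (-5.21 ± 0.63). Ccna2, a cyclin of S and G2 phase, measured 26, 262 and 8.7 in hair bulge and 837, 748, 977 and 691 in GFP_High (-4.37 ± 0.77). All 3 genes varied widely among hair bulge samples, with sample 2 highest and sample 3 lowest, and little among GFP_High samples. Without hair bulge sample 2, 24 of 26 were lower and the difference of Mki67 was -5.13, and without sample 3 it was -2.90 (adjusted p = 0.00041). Sample 2 thus lay nearest to GFP_High but below every GFP_High sample for these genes.

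Pcna, the replication clamp, differed less, with 2729, 2256 and 2148 in hair bulge and 2792, 3215, 2987 and 2986 in GFP_High (-0.34 ± 0.11, adjusted p = 0.024), and was not called without hair bulge sample 2 or 3 or GFP_High sample 2 (adjusted p = 0.076, 0.11 and 0.065). Rrm2, a subunit of ribonucleotide reductase, was the member not called, with 200.3, 218 and 169 in hair bulge and 136, 179, 211 and 182 in GFP_High, and another probe set of Rrm2 was called lower (-0.58 ± 0.17, adjusted p = 0.015). Of the cyclins, Ccnd3 was higher, with 171, 167 and 149.7 in hair bulge and 44.2, 64.5, 42.7 and 38.3 in GFP_High (1.81 ± 0.17), and Ccnd1 lower, with 244, 625 and 155 in hair bulge and 599, 737, 649 and 574 in GFP_High (-1.15 ± 0.37, adjusted p = 0.017). Ccnd1 overlapped between the groups through hair bulge sample 2, and without hair bulge sample 1 or 3 it was not called (adjusted p = 0.068 and 0.11).

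Of 10 inhibitors and pocket proteins, which restrain the cycle, 5 were higher in hair bulge and 2 lower. Cdkn1a, the p21 inhibitor, measured 1583, 1076 and 1804 in hair bulge and 51.5, 44.2, 145 and 85.8 in GFP_High (4.32 ± 0.34, adjusted p = 8.4e-08). Cdkn1c, p57, measured 50.7, 31.4 and 45 in hair bulge and 7.5, 8.3, 8.1 and 7.7 in GFP_High (2.40 ± 0.21). Cdkn1b, p27, was not called, with 320.5, 276 and 460.4 in hair bulge and 244, 319, 206 and 212 in GFP_High. Rbl1, a pocket protein, and Cdkn2c, p18, were lower in hair bulge (-2.71 ± 0.31 and -1.51 ± 0.25).

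**Figure D5:**
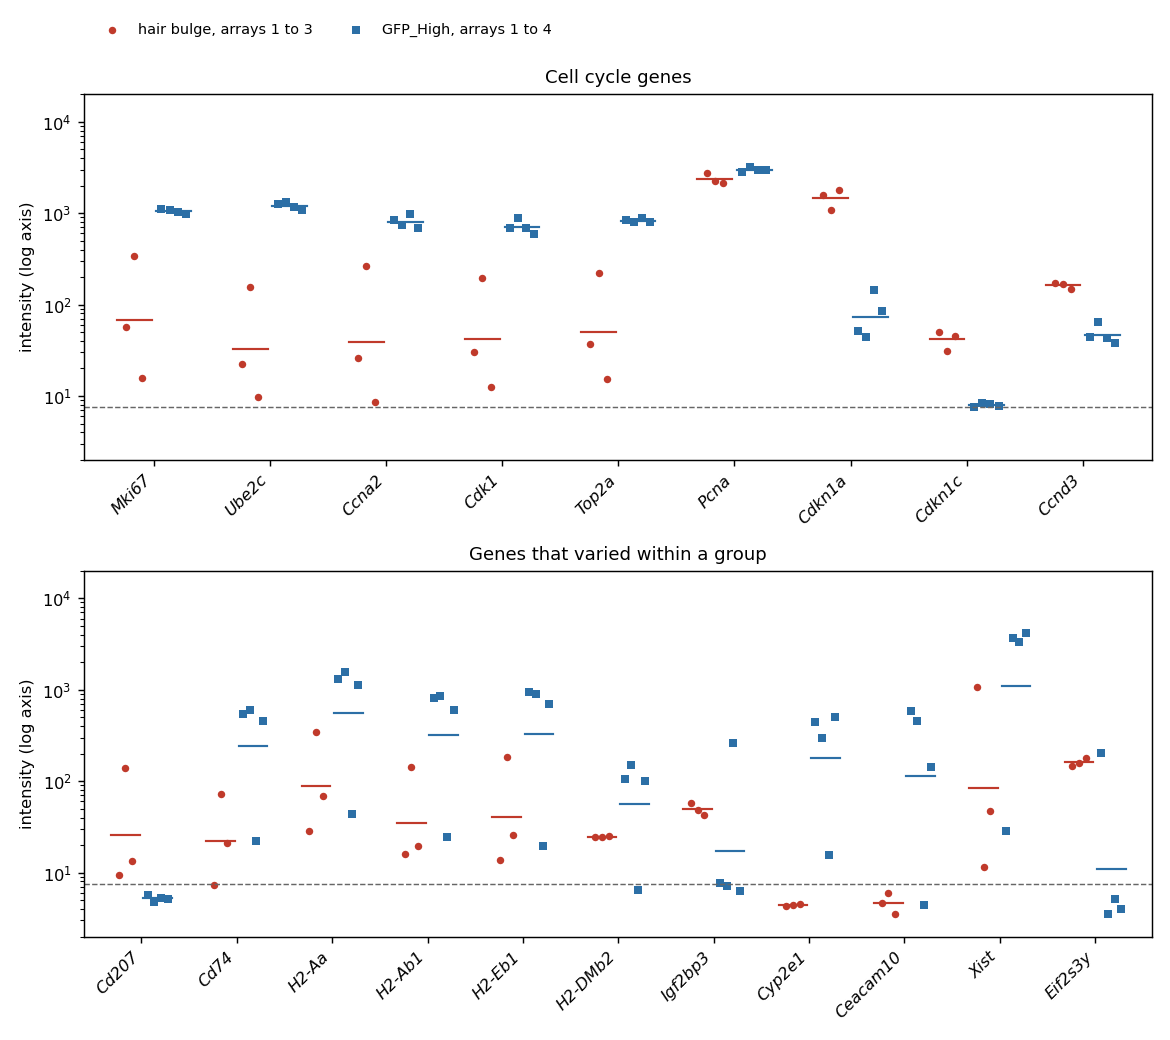
Intensity per array on a log axis for cell cycle genes (top) and for genes that varied within a group (bottom), with hair bulge arrays 1 to 3 as red circles left of GFP_High arrays 1 to 4 as blue squares, bars at the geometric mean and the receptor level as a dashed line. Hair bulge array 2 is the highest of its group for Mki67, Ube2c and Ccna2, and GFP_High array 3 is the lowest of its group for Cd74 and the other MHC class II genes.

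Genes of the immediate early response and of the heat shock response can be induced while cells are isolated. They were higher in hair bulge for 19 of 20 measured members (median 2.36), and none was lower. The methods describe a trypsin step that was in some cases longer for skin than for crypts. Its part in these differences was not tested. Hspb1, a small heat shock protein also abundant in keratinocytes, measured 10532, 10585 and 11314 in hair bulge and 14.9, 15.4, 14.8 and 16.5 in GFP_High (9.46 ± 0.16). Atf3, a stress-induced factor, measured 6087, 3810.0 and 6720.0 in hair bulge and 361, 185, 844 and 542 in GFP_High (3.69 ± 0.39). Fos was high in both groups, with 8979.5, 7743 and 9156 in hair bulge and 3056, 2325, 4261 and 3388 in GFP_High (1.43 ± 0.18). The summed intensity of the list was 73500.0 to 93790.0 in hair bulge and 16262 to 24132 in GFP_High. The part of these transcripts in the differences of Klf4, Cdkn1a, Hbegf and Epgn, which are inducible in many cells, was not tested.

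Markers of other skin cells were found in the hair bulge samples at varied levels. Of 10 melanocyte genes 4 were higher, 1 was lower and 5 were not called. Summed intensities were 768.8 to 986.8 in hair bulge and 95.8 to 111.6 in GFP_High. Mitf, a factor of melanocytes, measured 632, 299 and 587 in hair bulge and 6.6, 7.5, 5.3 and 7.8 in GFP_High (6.16 ± 0.25). Dct, a pigment enzyme, measured 148, 408 and 97.3 in hair bulge and 26.6, 15, 27.2 and 33.6 in GFP_High (2.88 ± 0.40). Tyr, the defining enzyme of pigment synthesis, was below the receptor level in hair bulge samples 1 and 3 and at 16.1 in sample 2, in which Dct was also highest.

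Fibroblast genes were higher for 4 of 9, with sums of 191.1 to 420.6 in hair bulge and 46.6 to 62.8 in GFP_High. Vim, the intermediate filament of mesenchyme, measured 104, 337 and 65.1 in hair bulge and 5.8, 8.8, 12.6 and 7.6 in GFP_High (3.98 ± 0.49). Sebaceous genes were higher for 6 and lower for 3 of 13, with sums of 953.5 to 2064.9 in hair bulge and 1066.6 to 1248.9 in GFP_High. Scd1, a desaturase of sebocytes, measured 205, 601 and 126 in hair bulge and 6.4, 4, 4.7 and 4.6 in GFP_High (at least 33-fold higher). Far2, a lower member of that list, measured 4.3, 8.1 and 4.4 in hair bulge and 265, 275, 233 and 225 in GFP_High (-5.54 ± 0.19). Vim and Scd1 were highest in hair bulge sample 2, and without that sample their fitted log2 differences were 3.30 and 5.05. Of 10 endothelial and muscle genes none was called by limma in either direction, and 0 had an unadjusted p under 0.05. However, 5 of the 10 were above the receptor level in none of the 7 samples and could show no difference. In GFP_High, Acta2 of that list measured 66.9 in sample 3 and 7.2 to 8 in the others. The part of these cells in the differences was not tested.

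The GFP_High samples held transcripts of secretory cells of the crypt. Goblet cell genes were lower in hair bulge for 8 of 9 measured members, with sums of 164.0 to 396.6 in hair bulge and 1672.5 to 3082.2 in GFP_High. Tff3, of goblet cells, measured 6, 3.5 and 6.1 in hair bulge, 539, 1194, 1045 and 803 in GFP_High and 6763 ± 845 in GFP_Low (SD, n = 3). Paneth cell genes were lower for 4 of 4 measured out of 10 listed, with sums of 19.5 to 22.6 in hair bulge and 1026.8 to 1840.6 in GFP_High. Itln1, of Paneth cells, was below the receptor level in hair bulge and at 1255, 924, 599.6 and 1326 in GFP_High. Enteroendocrine genes were lower for 6 of 14, and tuft cell genes were higher for 1 of 8. Over all genes 29.1% were lower and 19.4% higher. In none of the 7 samples were 3 of the 14 and 1 of the 8 above the receptor level. How much of the intestinal differences came from such cells was not tested.

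Genes of antigen presentation varied within both groups. Cd74, the invariant chain of MHC class II, measured 7.4, 71.8 and 21.1 in hair bulge and 547, 606, 22.1 and 456 in GFP_High (-3.42 ± 1.31, adjusted p = 0.044). H2-Aa measured 28.3, 348 and 68.4 in hair bulge and 1309, 1563, 43.3 and 1126 in GFP_High (-2.68 ± 1.43, adjusted p = 0.15). H2-Ab1 measured 15.8, 142 and 19.3 in hair bulge and 814, 846, 24.6 and 594 in GFP_High (-3.17 ± 1.22, adjusted p = 0.045). GFP_High sample 3 was far below the other GFP_High samples, and hair bulge sample 2 above the other hair bulge samples. Cd207, a lectin of Langerhans cells in the epidermis, measured 9.4, 139 and 13.5 in hair bulge and 5.7, 4.8, 5.3 and 5.1 in GFP_High, also highest in sample 2, and it was not called with 16 added before the log2 (adjusted p = 0.064). Without GFP_High sample 3 the differences of Cd74, H2-Aa and H2-Ab1 were -4.57, -3.91 and -4.40, and all 3 were called (adjusted p = 0.0042, 0.019 and 0.0013). With that sample kept and any other array but hair bulge sample 2 left out, neither Cd74 nor H2-Ab1 was called (adjusted p of 0.099 to 0.18 for Cd74). Within the shared title code, where hair bulge sample 2 meets GFP_High sample 3, Cd74, H2-Aa and H2-Ab1 were higher in hair bulge by 1.70, 3.01 and 2.53, so that their direction depends on these arrays.

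Genes outside this group also varied within GFP_High. Igf2bp3, an RNA-binding protein of fetal tissues, measured 57.8, 48.4 and 43.1 in hair bulge and 7.6, 7.1, 259 and 6.3 in GFP_High (1.52 ± 1.32, adjusted p = 0.4), and without GFP_High sample 3 it was higher in hair bulge by 2.82 (adjusted p = 0.037). Within the shared title code Igf2bp3 differed by -2.42. Cyp2e1, a cytochrome P450, measured 4.3, 4.4 and 4.5 in hair bulge and 441, 299, 15.5 and 499 in GFP_High (at least 23.7-fold lower, adjusted p = 0.00022). GFP_High sample 3 was again the one apart, in opposite directions for these genes.

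Sex-linked transcripts differed among samples of both groups. Xist, which is transcribed from the inactive X chromosome, measured 1073, 11.4 and 47.3 in hair bulge and 28.8, 3688, 3348 and 4119 in GFP_High, and Eif2s3y, on the Y chromosome, 148, 158 and 180.2 in hair bulge and 202, 3.5, 5.2 and 4 in GFP_High. GFP_High sample 1 resembled the hair bulge samples in its Y-linked transcript, and hair bulge sample 1 held both. Neither gene was called (adjusted p = 0.22 and 0.057), and the part of sex in the differences was not tested.

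Of 26 measured genes of xenobiotic metabolism 21 were lower in hair bulge and 2 higher (median -2.10), and of 23 genes of lipid and nutrient handling 17 were lower and 1 higher. Fabp2, which carries fatty acids in enterocytes, measured 3.7, 4.9 and 4.3 in hair bulge and 1116, 1469.8, 1814 and 1540.2 in GFP_High, at least 194-fold lower. Ugt2b34, a glucuronosyltransferase, measured 4.9, 3.1 and 3.6 in hair bulge and 706, 550.3, 689.7 and 851 in GFP_High (at least 91.5-fold lower). Mgam, a brush border glucosidase, measured 6.2, 4.7 and 6 in hair bulge and 592, 463, 442 and 560.5 in GFP_High. Ephx1, an epoxide hydrolase, was higher, with 829.8, 705 and 942 in hair bulge and 109, 98.2, 108 and 136 in GFP_High (2.87 ± 0.28). The groups did not overlap for these 4 genes. Enzymes and transporters of sugar use were higher for 8 and lower for 4 of 19. Hk1, a hexokinase, measured 111, 147 and 108 in hair bulge and 7.5, 8.3, 7.2 and 9.8 in GFP_High (3.89 ± 0.18), whereas Pklr, the pyruvate kinase of liver and gut, was lower (-3.03 ± 0.18). Of the lactate dehydrogenase subunits, Ldhb was higher (2.58 ± 0.27) and Ldha lower (-1.47 ± 0.16).

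Most of the genes with the largest fitted differences have been named above. Their order is not settled where a group lies below the receptor level. The 10 on the higher side were Col17a1, Krt14, Dmkn, Lgals7, Hspb1, Postn, Krt5, S100a6, Gja1 and Anxa8. On the lower side, beside Lgals2 and Olfm4, were Pigr, the carrier of IgA across epithelium, which measured 6.5, 4.3 and 5.4 in hair bulge and 5053, 4837, 4012 and 5058 in GFP_High (at least 625-fold lower), Lypd8, a secreted protein of the gut (at least 425-fold lower), and Lyz2, a lysozyme, with 5.7, 4.4 and 4.5 in hair bulge and 4346, 4452, 2138 and 4503 in GFP_High (at least 489-fold lower). The others were 9130208D14Rik, Plac8, Aldh1b1, Dmbt1 and Prom1. These genes were near or below the receptor level in hair bulge.

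Genes alike in both groups were defined by a 95% interval of the difference within a log2 of 1 and both means above the receptor level. There were 3884, or 40.9% of the 9497 genes with both means above that level and 22.7% of all genes, and 1118 of them were called all the same. Those with the brightest probe sets were ribosomal genes and Eef1a1, a translation factor. Rpl41 measured 8239.7, 8852 and 7529 in hair bulge and 8669, 9496, 11245 and 8749 in GFP_High (-0.21 ± 0.13). Rps29 measured 7568, 8232 and 7826 in hair bulge and 9434, 8568, 9668 and 9554 in GFP_High, and Eef1a1 7821, 7752 and 7882 in hair bulge and 8716, 9210.0, 8379.7 and 8994 in GFP_High. In Villus the same 3 genes measured 4294 ± 532, 2561 ± 478 and 3399 ± 392 (SD, n = 3). A further 245 genes with both means above the level were not called but had an interval wider than that margin, so that like and unlike levels could not be told apart for them.

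In genome order, genes higher in hair bulge by at least 2 lay next to each other in 13 runs of 3 or more measured genes, and lower ones in 23, among 16933 genes that could be placed by RefSeq. No run was longer than 4. The longest were Serpinb11, Serpinb7, Serpinb2 and Serpinb8 on chromosome 1, protease inhibitors of which Serpinb2 measured 1252, 1604 and 1361 in hair bulge and 3.6, 3.1, 4 and 3.8 in GFP_High, and Mmp2, Lpcat2, Capns2 and Slc6a2 on chromosome 8. Sbsn, Dmkn and Krtdap, secreted proteins of the epidermis on chromosome 7, formed another run. In it Sbsn differed by 6.20 ± 0.24 and Krtdap was at least 238-fold higher. Trp63, P3h2 and Cldn1 on chromosome 16 formed another, with P3h2 at least 47.3-fold higher. The Serpinb genes are 1 family, whereas Trp63, P3h2 and Cldn1 encode unrelated proteins.

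Among the lower runs were further families, and probe sets for near-identical copies may share signal within them. Akr1c13, Akr1c19 and Akr1c12, aldo-keto reductases on chromosome 13, were at least 42-fold lower, at least 10.2-fold lower and at least 105-fold lower. Of Gstt3, Gstt1 and Gstt2, glutathione transferases on chromosome 10, Gstt1 was at least 26.3-fold lower, and Gstt3 and Gstt2 differed by -2.50 and -4.75. Lipt2, Kcne3 and Pgm2l1 on chromosome 7 are unrelated, and Kcne3, a subunit of potassium channels of the crypt, measured 4, 4.4 and 3.8 in hair bulge and 1543, 1532, 925 and 1604 in GFP_High (at least 181-fold lower). Fads2, Fads1 and Fen1 on chromosome 19 differed by -5.77, -3.25 and -3.21, the first 2 being desaturases of long fatty acids.

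The hair bulge samples were also set against the other intestinal groups. The share of called genes was 46.2% for hair bulge against GFP_Low and 54.3% for hair bulge against Villus, and 48.9% for Villus against GFP_High. These comparisons share samples with each other and with the main one, and differences between the shares were not tested. Across genes, hair bulge arrays correlated with GFP_Low arrays at 0.765 to 0.806 and with Villus arrays at 0.685 to 0.699. Anxa2, an annexin of membrane traffic, measured 4454 ± 698 in hair bulge, 129 ± 36.7 in GFP_High and 3614 ± 231 in Villus (SD, n = 3, 4 and 3). Its hair bulge difference was 5.14 ± 0.20 against GFP_High and 0.29 against Villus (adjusted p = 4.2e-11 and 0.28). Some other genes higher in hair bulge than in GFP_High were also above the receptor level in Villus. Their Villus means were 284 for Lama3, 310 for S100a6 and 758 for Cdkn1a. The hair bulge markers Krt14 and Col17a1 were low in Villus as well. Krt14 measured 5558 ± 1616 in hair bulge and 6.2 ± 0.2 in Villus, and Col17a1 5774 ± 791 in hair bulge and 5.1 ± 0.8 in Villus (SD, n = 3 each). Both were called higher in hair bulge than in Villus (adjusted p = 1.7e-14 and 1e-14).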

How the data were processed

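RNA from sorted cells was hybridised to Affymetrix HT MG-430 PM arrays, 1 array per sample. The deposited values are intensities on a linear scale that the authors obtained by RMA-sketch with Affymetrix Power Tools (version not given in the sources used here). This background-corrects, quantile-normalizes and summarizes the probes of all arrays together, so that differences in total RNA are removed. The values were converted to log2 and not normalized again.

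Of 45141 probe sets, 28898 named a single gene in the platform annotation, 551 several and 15692 none, and 28689 of the single names were found in RefSeq. Each of 17097 genes was represented by its brightest probe set on average, and 7180 genes had more than 1. Groups followed titles and sources. All 13 arrays were fitted with limma 3.58.1 (lmFit and eBayes, R 4.3.3) with a mean per group, the contrast of hair bulge minus GFP_High was tested two-sided with Benjamini-Hochberg adjustment over all genes, and lists are described by counts without a test. P-values measure the spread between pools of mice. A fold bound sets the mean of the bright group over the higher of the receptor level and the dim signal. The script was tested on simulated data with 200 changed genes of 17097, of which 77.5% were recovered at a log2 change of 1 and 97.7% at 2. In the real data 48.6% of genes were called, and recovery depends on that share, so these rates do not describe the present comparison.

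Genes named are the markers, the 10 largest fitted differences in each direction, up to 4 of the largest and 2 opposing members of each list, alike genes of the highest intensity, genes of high spread within a group and those of the longest neighbour runs. A further 47 of the 217 genes checked below were chosen after their values were seen. Kit and Far2, named as members that go against their lists, are not among the 217. Members and lists were chosen with earlier results of these data known. Alternatives were quantile normalization, median centring, an offset of 16, the 7 arrays alone, a filter at the receptor level on at least 3 of the 7 arrays, the mean of probe sets, trend with robust eBayes, the title code as a block and leaving out each sample.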

Additional observations from a re-analysis of the deposited data

Results flagged for a closer look

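Within the 4 GFP_High samples, 18 of 217 genes had 1 sample far from the others by Dixon's criterion. Chance alone meets it in about 1 in 20 groups, a rate that does not apply to 7 of the 18, which were named for their spread within GFP_High (Cd74, H2-Aa, H2-Ab1, Igf2bp3, Cyp2e1, Xist and Eif2s3y). Of the other 210 genes, 11 met it, which is near that rate. The 3 hair bulge samples are too few for it. In 13 of the 18 genes, including Cd74, H2-Aa, H2-Ab1, Igf2bp3 and Cyp2e1 that were named for spread, the distant sample was GFP_High sample 3. It was low for MHC class II genes, with 22.1 against 455.6 to 606.0 in the other GFP_High samples for Cd74, 43.3 against 1126 to 1562.9 for H2-Aa and 24.6 against 593.8 to 845.6 for H2-Ab1. It was also low for Nfix (118.6 against 471.6 to 495.8), Fzd2 (17.3 against 38.8 to 44.1), Lyz2 (2137.5 against 4346.2 to 4502.8), Kcne3 (924.7 against 1532.5 to 1604.5) and Cyp2e1 (15.5 against 298.6 to 499.2). It was high for Igf2bp3 (258.7 against 6.3 to 7.6), Ror2 (57.2 against 30.0 to 30.5), Elf3 (840.5 against 533.8 to 571.6), S100a6 (14.3 against 5.2 to 5.9) and Lor (6.5 against 4.5 to 4.7), the last of which stayed below the receptor level.

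GFP_High sample 1 was distant for 4 genes. Its Xist was 28.8 against 3347.7 to 4119.4 in the other GFP_High samples, and its Eif2s3y was 201.8 against 3.5 to 5.2. Its Anxa13 was 90.2 against 161.8 to 173.0 and its Fabp1 98.0 against 243.0 to 283.5. GFP_High sample 4 had a Tgm2 of 359.8 against 510.8 to 544.5 in the others. For Nfix, Lyz2, Kcne3, Elf3, Anxa13, Fabp1 and Tgm2 the hair bulge samples did not overlap any GFP_High sample, the distant one included.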

How the results depend on the processing

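Of 195 called genes among the 217, 187 stayed on their side of the threshold under every alternative except the title code as a fixed block. The 8 that did not were Ptch1, Ihh, Ror2, Pcna, Ccnd1, Cd207, Cd74 and H2-Ab1. The counts of genes stayed within 1.5 times their values in all but 1 setting: with 16 added to each intensity before the log2, which shrinks differences of dim genes, 678 were higher and 677 lower by a log2 of at least 2. Leaving out each sample in turn gave 3062 to 3248 genes higher, 4576 to 4832 lower, 1079 to 1136 higher and 1074 to 1344 lower by at least 2, and 3517 to 3794 alike. The Lgr5 difference was -0.34 to -0.08 in these fits. Higher genes made up 40.0% of calls, 43.2% after quantile normalization and 37.2% with each array centred on its median, which moved the median difference of all genes to -0.11.

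No paired analysis was possible because the groups share a single title code. With that code as a fixed replicate block, 2 residual degrees of freedom were left. The hair bulge term then rested on hair bulge sample 2 alone, because the other hair bulge samples have codes of their own. Counts of called genes from that fit are therefore not given, and its Lgr5 difference was -0.99. The sign under this block turned for Ccnd1 (0.12), Cd74 (1.93), H2-Aa (3.30), H2-Ab1 (2.13), Hes1 (-0.79), Igf2bp3 (-2.46) and Vdr (0.010). Within the shared code, with 1 array each, it turned for Cd74 (1.70), H2-Aa (3.01), H2-Ab1 (2.53), Hes1 (-0.78), Igf2bp3 (-2.42) and Vdr (0.10). The arrays of this code also differed in sex-linked transcripts. Xist measured 11.4 in hair bulge sample 2 and 3347.7 in GFP_High sample 3, and Eif2s3y 157.5 and 5.2. The part of sex in these signs was not tested. With the mean of all probe sets of a gene, Itga6 turned to 0.15 and Rrm2 to -0.21. Among the 217, 108 genes had several probe sets. Of these, 23 called ones had another that was not called, in 14 of them one below the receptor level in all 7 samples. Another 8 that were not called had a probe set that was. Genes with differences near 0 changed sign without a call. Cdh1 was -0.020 after quantile normalization and -0.034 after centring, and ranged over -0.036 to 0.058 when each sample was left out in turn. Over the same fits Hes1 ranged over -0.069 to 0.63, Irx6 over -0.075 to 0.029 and Klf5 over -0.26 to 0.085. The cause of these changes was not tested.

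The number of arrays limits precision, with a median SE of 0.16 in log2. Cells were pooled from 3 mice per sample, the gates were not matched, and dim genes have compressed differences near the receptor level.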
